A study of Mus musculus with 12 samples.

Results

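Trp53, the gene for the transcription factor p53, and 9 genes that p53 is known to activate were followed through RNA-seq of mouse embryonic stem cells (mESCs). The 10 genes were chosen as known parts of the pathway and found by their symbols (Trp53, Mdm2, Cdkn1a, Ccng1, Phlda3, Bbc3, Pmaip1, Zmat3, Trp53inp1 and Sesn1), and all 10 were among the 54146 genes that each library reports. Every library came from C57BL/6 mESCs of the genotype Prdm10F/F; Rosa26-CreERT2. In these cells a Cre recombinase expressed from the Rosa26 locus is active only in the presence of 4-hydroxytamoxifen, and it then removes the loxP-flanked part of Prdm10, which encodes a PR domain zinc finger transcription factor. The cells grew in serum with LIF and were given 50 nM 4-hydroxytamoxifen (OHT) or the same volume of ethanol (EtOH) for 24 h, and RNA was taken at Day 2 or Day 4. This gave 4 groups of 3 libraries: Day 2 EtOH, Day 2 OHT, Day 4 EtOH and Day 4 OHT. All 4 groups carry the floxed allele and the recombinase, no group without CreERT2 received OHT, and the labels do not say whether the 3 libraries of a group were separate cultures, so that p-values measure the spread between these libraries only.

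p53 is a sequence-specific activator that is kept at a low protein level by MDM2, a ubiquitin ligase whose own gene p53 activates, and it is stabilised when DNA is damaged or other stress is sensed. Its targets include CDKN1A (p21), which blocks cyclin-dependent kinases, the BH3-only proteins PUMA (Bbc3) and NOXA (Pmaip1), which promote apoptosis, and several proteins that feed back on p53 or limit growth. Because the protein is controlled after translation, the level of Trp53 mRNA is not a readout of p53 activity. Embryonic stem cells are known for abundant Trp53 mRNA and for little p21 in spite of it.

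The response element of p53 is a pair of 10-base units, here called decamers, with a short spacer. Decamers were sought in RefSeq promoter windows on GRCm38.p6, from 250 bases before to 50 bases after a gene's start. The consensus reads the same on both strands, so that 1 search covered both. Windows were read for 7 of the 10 genes, 11 windows in all, and 5 of these windows, from 5 genes, held a decamer. Of all 32851 windows 8.36% held one. The windows with a decamer at Cdkn1a, Mdm2, Ccng1 and Trp53 are shown because they belong to the best known targets and to the p53 gene itself, with the decamers in capitals, and each is written along the gene's own strand.
Cdkn1a: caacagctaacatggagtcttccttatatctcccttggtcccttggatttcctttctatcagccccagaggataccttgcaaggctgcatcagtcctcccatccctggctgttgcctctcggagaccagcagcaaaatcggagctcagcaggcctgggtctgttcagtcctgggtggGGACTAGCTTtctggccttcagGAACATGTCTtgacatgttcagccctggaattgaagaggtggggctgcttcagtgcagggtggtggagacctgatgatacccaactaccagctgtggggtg
Mdm2: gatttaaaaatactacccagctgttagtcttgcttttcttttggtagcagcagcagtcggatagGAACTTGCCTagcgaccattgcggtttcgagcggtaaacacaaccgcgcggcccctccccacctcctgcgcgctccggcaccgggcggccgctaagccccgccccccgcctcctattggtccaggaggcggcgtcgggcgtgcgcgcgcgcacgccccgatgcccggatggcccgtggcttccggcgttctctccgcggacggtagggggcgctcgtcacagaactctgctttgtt
Ccng1: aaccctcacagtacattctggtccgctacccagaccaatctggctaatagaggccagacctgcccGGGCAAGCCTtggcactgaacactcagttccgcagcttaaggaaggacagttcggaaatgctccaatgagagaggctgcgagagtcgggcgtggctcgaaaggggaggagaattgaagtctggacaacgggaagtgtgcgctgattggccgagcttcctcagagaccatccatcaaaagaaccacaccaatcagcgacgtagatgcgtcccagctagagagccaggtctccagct
Trp53: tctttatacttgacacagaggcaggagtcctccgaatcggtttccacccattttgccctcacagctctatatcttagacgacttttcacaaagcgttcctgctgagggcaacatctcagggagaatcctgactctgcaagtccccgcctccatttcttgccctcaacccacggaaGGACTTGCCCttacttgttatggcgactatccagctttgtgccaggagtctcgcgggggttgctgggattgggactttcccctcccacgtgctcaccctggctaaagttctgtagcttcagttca
The Cdkn1a window shown (chr17:29090729-29091028, plus strand) held 2 decamers that begin 73 and 51 bases before its start. Another Cdkn1a window, at a later start (chr17:29093519-29093818), held none. The Cdkn1a window shown was the only window of these genes with a pair no more than 13 bases apart, which 0.0731% of all windows had. The Mdm2 window (chr10:117710709-117711008, minus strand) held 1 decamer that begins 186 bases before the start, and the Ccng1 window (chr11:40755237-40755536, minus strand) held 1 that begins 185 bases before it. In the Trp53 window (chr11:69580109-69580408, plus strand) a decamer begins 75 bases before the start, inside the stretch that Trp53 shares head to head with Wrap53. A Wrap53 window (chr11:69580201-69580500, minus strand) holds the same decamer 43 bases before its own start, and another (chr11:69579200-69579499) holds none. A decamer also begins 173 bases before the start in 1 of the 2 Sesn1 windows. None was in the windows of Bbc3 or Phlda3, and no window was read for Pmaip1, Zmat3 or Trp53inp1. A match is a description of letters and does not show that p53 binds there.

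Trp53 and its neighbour Wrap53 are on the study's list of genes assigned to PRDM10-bound regions, and none of the other 9 genes is. The study's wild-type binding probe, with the bases that its mutant probe changes in capitals, is shown for comparison with these promoters.
PRDM10 probe: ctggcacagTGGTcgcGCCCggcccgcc
The 11-base stretch from the first to the last changed base, TGGTCGCGCCC, was searched on both strands. It was in none of the 11 windows of the p53 genes and in 4 of all 32851 windows (0.0122%). An exact match this rare cannot tell PRDM10-bound promoters from others, so its absence says only that these letters do not stand in these windows. The PRDM10-bound region near Trp53 lies outside the window read and was not searched.

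Library totals ran from 35017667 to 41409992 expected counts, an expected count being the estimated number of read pairs from a gene. Counts over the whole targeted gene were higher with OHT: Prdm10 had 767, 821 and 815 normalised counts in the libraries labelled Day 2 EtOH and 2080, 2225 and 2213 in those labelled Day 2 OHT. At Day 4 it had 821, 875 and 911 with EtOH and 1982, 2090 and 1965 with OHT. A normalised count is the count divided by a size factor of its library. These counts cover the whole gene and not the deleted exon, so that they do not check the deletion, and the groups are named below by their labels. The study itself checked the deletion in its mESCs in genomic DNA, by qRT-PCR of the deleted exon and by PRDM10 protein. The 8 stem cell markers summed to 2365 to 2850 TPM, a level per length scaled to the whole library, in the 12 libraries. By the rule for a call given below, 6 of them were called higher in OHT at Day 4 and none lower. Of all genes tested, 23.5% were called higher and 21.7% lower at Day 4. At Day 2, 1 was called higher (Esrrb, 0.20 on the log2 scale) and 3 lower (Sox2 -0.29, Tdgf1 -0.15 and Pou5f1 -0.13), beside 9.26% and 10.8% of all genes tested. The part of these markers in the results below was not tested. Of 9 fibroblast markers 8 stayed below 1 TPM in every library, and their sum was 2.53 to 3.51 TPM in the other groups and 1.28 to 1.74 TPM in Day 4 OHT. The 10 markers of differentiated cells summed to 2.98 to 3.67 TPM. No library stood apart from its group by much more than the others, with a root mean square deviation of 0.0956 to 0.172 on the log2 scale.

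Per length of transcript, the 10 genes spanned a wide range of levels and kept nearly the same order throughout, as the plot of TPM shows. Ccng1, which encodes cyclin G1, had the highest level at 72.8 TPM ± 5.23 (SD over the 12 libraries), and Trp53 followed at 65.8 ± 8.85 TPM. Of the 11616 genes with a mean normalised count above 100, 11.9% had a higher level than Trp53. Mdm2 was at 50.8 ± 4.73 TPM, Pmaip1 at 41.4 ± 2.91 TPM and Trp53inp1, a nuclear protein that promotes p53-dependent apoptosis and autophagy, at 38.9 ± 4.90 TPM. Phlda3, which holds back AKT at the membrane, stood alone at 19.9 ± 2.90 TPM. The lowest 4 were Sesn1, a stress-induced inhibitor of mTORC1, at 7.96 ± 0.612 TPM, Bbc3 at 6.91 ± 1.09 TPM, Zmat3, an RNA-binding zinc finger protein, at 5.35 ± 1.52 TPM and Cdkn1a at 4.75 ± 1.65 TPM. Ranges over the 12 libraries overlapped between Ccng1 and Trp53, between Trp53 and Mdm2, between Pmaip1 and Trp53inp1, and between each neighbouring pair of the lowest 4, so that the order within these pairs is not settled. Mdm2 and Pmaip1 lay next to each other without overlap by a narrow margin, and Phlda3 overlapped neither neighbour. Cdkn1a lay below 72.1% of the genes above that minimum.

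**Figure D1:**
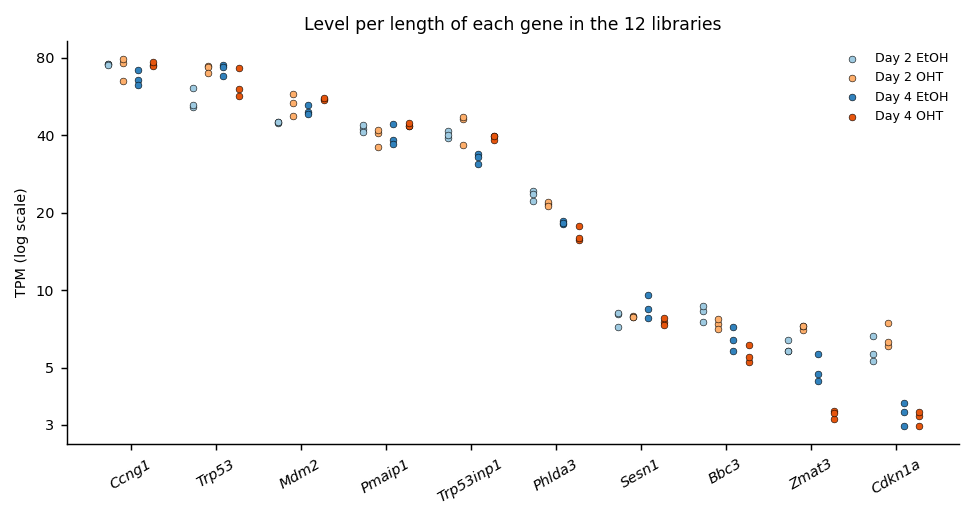
TPM of each gene on a log axis, 1 point per library, coloured by group and ordered by the mean over the 12 libraries. Trp53 ranged from 51.6 to 75.1 TPM and Cdkn1a from 2.97 to 7.48 TPM.

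The first question was whether p53 and its targets differed between libraries labelled OHT and EtOH at Day 2. A gene was called where DESeq2 gave an adjusted p below 0.05 and the mean normalised count was above 100, a minimum that all 10 genes passed. At Day 2, 3 of the 10 were called higher in OHT (Trp53, Mdm2 and Zmat3), beside 9.26% of the 11644 genes tested, and 2 were called lower (Phlda3 and Pmaip1), beside 10.8%. The median log2 fold change over the 10 was -0.02 and over all genes tested -0.03. The largest change of the 10 was 1.25-fold, and the targets stood on both sides of 0. With the first or the second Day 2 EtOH library left out, only 2 of the 10 were called.

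Trp53 itself rose at Day 2. It had 4138, 4193 and 4741 normalised counts in the EtOH libraries and 5423, 5422 and 5436 in the OHT libraries. Every OHT library was above every EtOH library, and the third EtOH library was above the other two. The log2 fold change was 0.32 ± 0.05 (SE), or 1.25-fold (adjusted p = 2.70e-07, n = 3 per group), and it kept its call in all 14 other settings tried, from 0.28 to 0.38 with 1 library left out. Mdm2 had 4755, 4654 and 4667 normalised counts with EtOH and 5253, 5218 and 4925 with OHT. The groups did not overlap, and the rise was 0.13 ± 0.04 (adjusted p = 0.0271). That call did not survive leaving out any 1 of the EtOH libraries or the first or second OHT library (adjusted p from 0.0679 to 0.133), nor the use of effective lengths as offsets (0.0602).

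Zmat3 had 1524, 1660 and 1803 normalised counts with EtOH and 1759, 1933 and 2220 with OHT at Day 2. The groups overlapped, and the rise of 0.25 ± 0.08 (adjusted p = 0.0191) was lost without the first EtOH (0.262), second EtOH (0.123), second OHT (0.0802) or the third OHT library (0.207), these being adjusted p-values. It was also lost with effective lengths as offsets (adjusted p = 0.0550) and once a trend of fold change with gene length was removed (log2 fold change 0.13, adjusted p = 0.259). Zmat3 has one of the longer transcripts here, with effective lengths of 4953 to 6575 bases.

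Of the pro-apoptotic genes, Pmaip1 fell at Day 2, from 5100, 4872 and 5083 normalised counts with EtOH to 4447, 4635 and 4175 with OHT. All OHT libraries were below all EtOH libraries. The log2 fold change was -0.18 ± 0.05 (adjusted p = 0.00306), a call that all 14 other settings kept. Bbc3 had 481, 484 and 446 normalised counts with EtOH and 411, 431 and 389 with OHT. Its groups did not overlap either, but its log2 fold change of -0.20 ± 0.10 was not called (adjusted p = 0.179), with a 95% interval from -0.39 to 0.00. Phlda3 fell from 1276, 1300 and 1134 normalised counts to 1052, 1039 and 1021, a log2 fold change of -0.25 ± 0.07 (adjusted p = 0.00456), the groups lying apart. Without the first or the second EtOH library its adjusted p was 0.0639 or 0.0766.

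Cdkn1a did not pass the test at Day 2. It had 378, 392 and 361 normalised counts with EtOH and 365, 458 and 418 with OHT, so that the groups overlapped. The log2 fold change was 0.13 ± 0.11 (adjusted p = 0.475), and its 95% interval from -0.08 to 0.35 leaves room for a rise of up to about what Trp53 showed. Ccng1, at -0.12 ± 0.05 (adjusted p = 0.0722), was called without the second OHT library (adjusted p = 0.0165) or with the length trend removed (0.0381). Trp53inp1 (0.01 ± 0.06) and Sesn1 (-0.06 ± 0.07) were not called, and the sign of Trp53inp1 turned without the first or the second OHT library (-0.02 and -0.04).

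**Figure D2:**
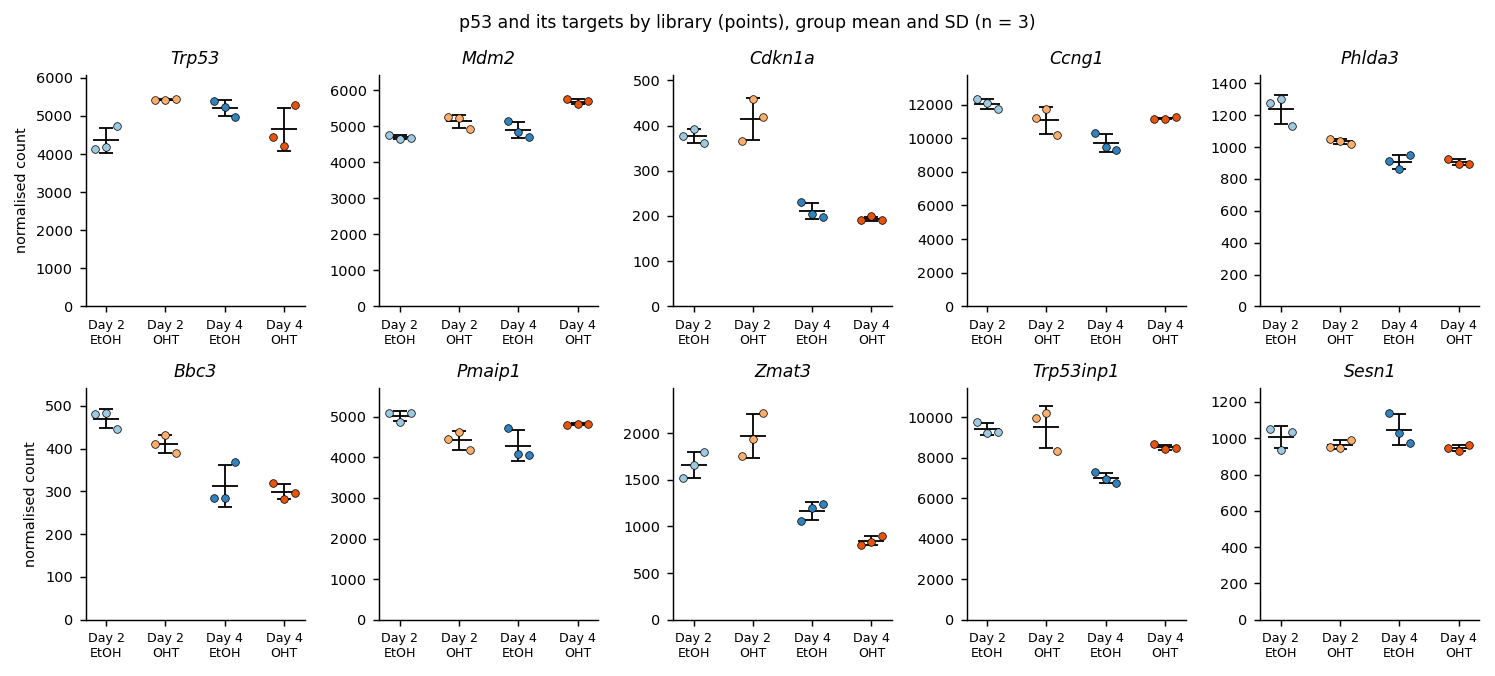
Normalised counts of the 10 genes in the 12 libraries, each panel from 0, with points for libraries and black bars for the group mean and SD. Cdkn1a, Zmat3, Bbc3 and Phlda3 stood lower in every Day 4 library than in every Day 2 library, and the third Day 4 OHT library of Trp53 (5279) stood above the other two (4454 and 4214).

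At Day 4 the question was the same, on separate libraries. Here 4 of the 10 genes were called higher in OHT (Mdm2, Ccng1, Pmaip1 and Trp53inp1), beside 23.5% of the 11555 genes tested, and 1 was called lower (Zmat3), beside 21.7%. The median log2 fold change of the 10 was -0.04 and that of all genes 0.01. Changes were again small: the highest of the 10 was a 1.22-fold rise and the lowest a 1.38-fold fall. Neither Cdkn1a, Bbc3 nor Phlda3 was called, and neither were Trp53 and Sesn1.

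Trp53inp1 showed the largest rise of the 10 at Day 4, from 7285, 6965 and 6765 normalised counts with EtOH to 8669, 8428 and 8492 with OHT. The groups lay well apart, and the log2 fold change was 0.28 ± 0.04 (adjusted p = 7.13e-14). Mdm2 rose from 5144, 4833 and 4695 to 5744, 5604 and 5695 normalised counts, with a log2 fold change of 0.21 ± 0.04 (adjusted p = 9.67e-07). Ccng1 rose from 10332, 9466 and 9310 to 11164, 11143 and 11236, with a log2 fold change of 0.20 ± 0.04 (adjusted p = 1.07e-06). In each of these genes every OHT library was above every EtOH library, and the call held in all 14 other settings. Pmaip1 rose from 4723, 4077 and 4052 to 4796, 4831 and 4831 normalised counts (0.17 ± 0.05, adjusted p = 0.00423). The first EtOH library was close to the OHT libraries, and without the second or the third EtOH library the adjusted p was 0.0648 or 0.0577.

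Zmat3 fell at Day 4, from 1062, 1199 and 1238 normalised counts with EtOH to 802, 835 and 899 with OHT. The groups did not overlap. The log2 fold change of -0.47 ± 0.08 (adjusted p = 8.36e-09) was kept in all 14 other settings, with values from -0.53 to -0.42 when 1 library was left out.

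For Trp53 the Day 4 result turned on 1 library. The EtOH libraries had 5394, 5240 and 4981 normalised counts and the OHT libraries 4454, 4214 and 5279. The first and second OHT libraries were below all EtOH libraries, and the third was above 2 of them. The log2 fold change was -0.17 ± 0.10 (adjusted p = 0.230, 95% interval from -0.37 to 0.04). Without the third OHT library it was -0.26 (adjusted p = 1.22e-06), and a single fit of all 12 libraries gave -0.16 (adjusted p = 0.0466). Over all genes that library deviated from its group mean by 0.124 on the log2 scale, beside 0.119 and 0.0956 for the other two.

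The genes for p21 and PUMA showed no called difference at Day 4. Cdkn1a had 231, 204 and 197 normalised counts with EtOH and 192, 199 and 191 with OHT, a log2 fold change of -0.12 ± 0.14 (adjusted p = 0.568) with a 95% interval from -0.40 to 0.15. Bbc3 had 284, 285 and 368 with EtOH and 319, 283 and 297 with OHT (-0.06 ± 0.13, adjusted p = 0.770, 95% interval from -0.31 to 0.19), and its sign turned without the third EtOH library (0.07). The Phlda3 groups overlapped between 862 and 950 normalised counts (-0.01 ± 0.07, 95% interval from -0.15 to 0.13), with its sign turning without the third EtOH library (0.03) or the second or the third OHT library (both under 0.01). Sesn1 was at 974 to 1141 with EtOH and 931 to 963 with OHT; these groups did not overlap, but the log2 fold change of -0.15 ± 0.07 was not called (adjusted p = 0.103) except without the third EtOH library (adjusted p = 0.0494) or by edgeR (0.0391).

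**Figure D3:**
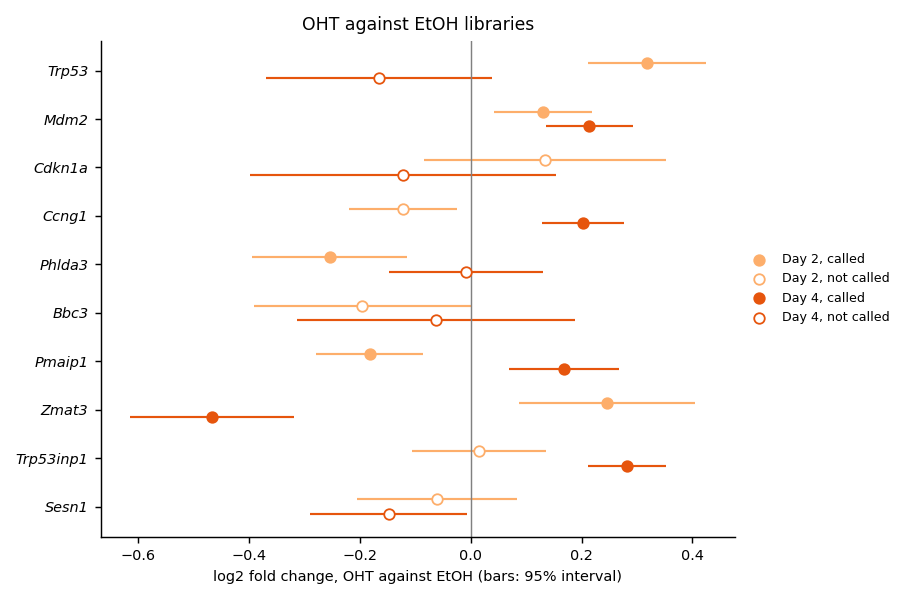
Log2 fold change of OHT against EtOH libraries at Day 2 and Day 4 with 95% intervals, filled where called. Mdm2 was called higher on both days (0.13 and 0.21), Pmaip1 was called lower at Day 2 (-0.18) and higher at Day 4 (0.17), and Zmat3 the other way round (0.25 and -0.47).

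The OHT effect at Day 4 was then set against that at Day 2 by the interaction term of a fit to all 12 libraries. It was called for 6 of the 10 genes, beside 32.5% of the 11616 genes tested. The effect was lower at Day 4 than at Day 2 for Zmat3 (difference in log2 fold change -0.71 ± 0.12, adjusted p = 1.51e-07) and Trp53 (-0.48 ± 0.10, adjusted p = 9.87e-06). It was higher at Day 4 for Pmaip1 (0.35 ± 0.08, adjusted p = 5.23e-05), Ccng1 (0.33 ± 0.07, adjusted p = 2.39e-05), Trp53inp1 (0.27 ± 0.08, adjusted p = 0.00717) and Phlda3 (0.25 ± 0.09, adjusted p = 0.0283). The first 5 of these kept the call in all 19 other settings. Phlda3 lost it in 13 of 19, and with effective lengths as offsets its difference was 0.08 (adjusted p = 0.593). Among the others were the fits without the first Day 2 EtOH (adjusted p = 0.0982), second Day 2 EtOH (0.121), second Day 2 OHT (0.0580), the third Day 2 OHT (0.0685), first Day 4 EtOH (0.0535), second Day 4 EtOH (0.112), first Day 4 OHT (0.0850) or second Day 4 OHT library (0.0501). Mdm2 was not called (0.09 ± 0.06, 95% interval from -0.02 to 0.20), and neither were Cdkn1a (-0.25 ± 0.16, from -0.56 to 0.06), Bbc3 (0.14 ± 0.15, from -0.16 to 0.43) and Sesn1 (-0.08 ± 0.10, from -0.27 to 0.10).

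From Day 2 to Day 4 most of the 10 genes fell within each treatment, and several by more than they differed between OHT and EtOH. Day 4 was compared with Day 2 within each treatment, on the same libraries as above. In EtOH cells 7 of the 10 genes were called lower at Day 4, beside 20.6% of the 11572 genes tested, and 1 (Trp53) was called higher, beside 20.7%. The median log2 fold change of the 10 was -0.37 and that of all genes 0.00. All 8 calls held in all 13 other settings of the model, leaving out each library included. In OHT cells 6 of the 10 were called lower at Day 4, beside 23.1% of the 11638 genes tested, and 2 (Mdm2 and Pmaip1) higher, beside 30.9%, with a median of -0.17 for the 10 and 0.04 for all genes. Here 5 were called without the first and 4 without the second Day 4 OHT library. Time in culture, cell density and library preparation cannot be told apart in the comparison of days.

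Cdkn1a fell most in EtOH cells, from 378, 392 and 361 normalised counts at Day 2 to 231, 204 and 197 at Day 4, a log2 fold change of -0.84 ± 0.12 (adjusted p = 1.48e-10). In OHT cells it went from 365, 458 and 418 to 192, 199 and 191, a log2 fold change of -1.09 ± 0.13 (adjusted p = 8.65e-17). Every Day 4 library was well below every Day 2 library in both treatments. Per length its level went from 5.85 ± 0.697 TPM to 3.32 ± 0.332 TPM (SD, n = 3) with EtOH. Cdkn1a overlaps an antisense annotation (AC167363.2) over 1046 bases in GENCODE vM21, and the library kit keeps the strand.

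Zmat3 fell by 0.51 ± 0.07 on the log2 scale in EtOH cells (adjusted p = 1.63e-10) and by 1.22 ± 0.08 in OHT cells (adjusted p = 1.37e-50), the latter being the largest change of any of the 10 genes. Bbc3 fell by 0.59 ± 0.12 in EtOH cells (adjusted p = 5.03e-06) and 0.45 ± 0.11 (adjusted p = 1.85e-04) in OHT cells. Phlda3 fell by 0.45 ± 0.07 in EtOH cells (adjusted p = 2.26e-08) and by 0.20 ± 0.07 in OHT cells (adjusted p = 0.0129), the second call being lost without the second Day 4 OHT library (adjusted p = 0.0521).

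Trp53inp1, Ccng1 and Pmaip1 also fell in EtOH cells, by 0.43 ± 0.04, 0.31 ± 0.04 and 0.23 ± 0.05 on the log2 scale, and in each every Day 4 library was below every Day 2 library. In OHT cells the 3 genes differed. Ccng1 was at 0.02 ± 0.05 (adjusted p = 0.796) with a sign that turned without the third Day 2 OHT library (-0.04) or with total counts as size factors (-0.01). Pmaip1 was called higher at 0.13 ± 0.05 (adjusted p = 0.0153), a call lost without the third Day 2 (0.0818) or the first, second or the third Day 4 OHT library (0.0557, 0.0681 and 0.0613), with total counts as size factors (0.0807) and in a single fit of all 12 libraries (0.0514). Trp53inp1 was called lower at -0.15 ± 0.06 (adjusted p = 0.0222), with overlapping groups. It was called neither without the first or second Day 2 OHT library (0.453 and 0.266) nor without the first, second or the third Day 4 OHT library (0.0973, 0.157 and 0.127), and not with the length trend removed (0.376).

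Trp53 and Mdm2 did not fall in EtOH cells. In EtOH cells Trp53 rose from Day 2 to Day 4 by 0.25 ± 0.05 on the log2 scale (adjusted p = 1.27e-05), and Mdm2 was at 0.06 ± 0.04 (adjusted p = 0.344, 95% interval from -0.03 to 0.14). In OHT cells Trp53 was lower at Day 4, at -0.22 ± 0.06 (adjusted p = 0.00153). That call was lost without any 1 of the Day 2 OHT libraries (adjusted p from 0.176 to 0.183) and without the first (0.0600) or second (0.0766) Day 4 OHT library. Mdm2 rose by 0.15 ± 0.04 in OHT cells (adjusted p = 0.00117), and with effective lengths as offsets this was 0.06 (adjusted p = 0.406). Sesn1 was called in neither treatment (0.05 ± 0.08 and -0.02 ± 0.07), with a sign that turned in EtOH cells without the first Day 4 EtOH library (-0.01).

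**Figure D4:**
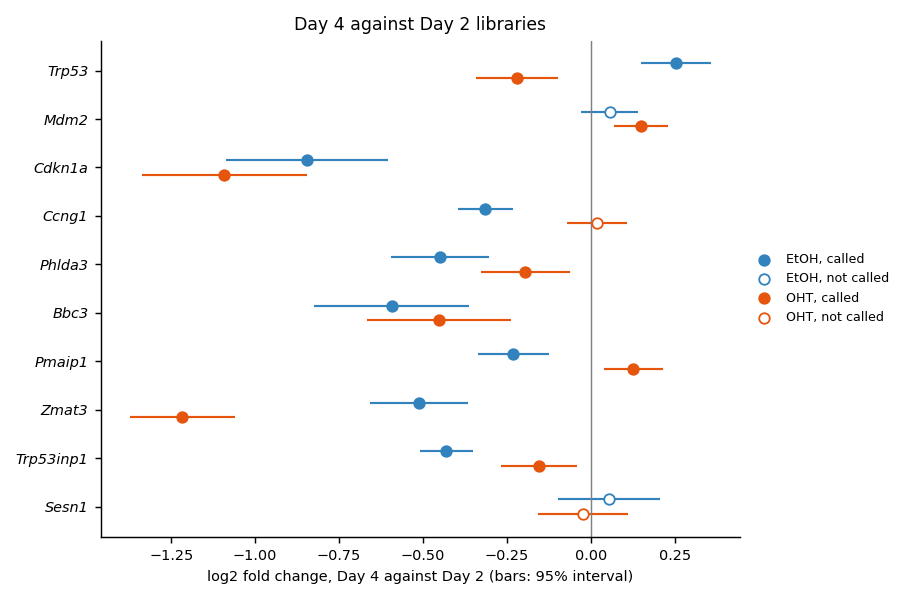
Log2 fold change of Day 4 against Day 2 libraries within EtOH and within OHT cells, with 95% intervals, filled where called. Cdkn1a, Zmat3, Bbc3, Phlda3 and Trp53inp1 lay below 0 in both treatments, and Trp53 above 0 in EtOH cells (0.25) and below 0 in OHT cells (-0.22).

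The neighbour of Trp53 was measured as well. Wrap53 (GRCm38, chr11:69561758-69580255, minus strand), which encodes a telomerase and Cajal body protein, starts next to Trp53 (chr11:69580359-69591873, plus strand), and the 2 genes do not overlap in GENCODE vM21. At Day 2 Wrap53 had 1517, 1484 and 1426 normalised counts with EtOH and 1373, 1373 and 1396 with OHT, a log2 fold change of -0.10 ± 0.06 that was not called (adjusted p = 0.311). At Day 4 it had 1808, 1703 and 1725 with EtOH and 1605, 1644 and 1526 with OHT, and was called lower at -0.14 ± 0.06 (adjusted p = 0.0453). The Day 4 call was lost without any 1 of the 6 libraries (adjusted p from 0.0617 to 0.245), with TMM factors (0.0552) and with effective lengths as offsets (0.162). At Day 2, where Trp53 rose, all Wrap53 values with OHT lay below those with EtOH.

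Genes with the pattern most like that of a given gene were sought among 11616 genes, by the root mean square difference of centred log2 values over the 12 libraries. For Trp53 they were Fgfr1 (0.0575), Prdm2 (0.0592) and Zfp462 (0.0652), where the pattern of Trp53 itself has a root mean square of 0.154. A gene without any change would differ from Trp53 by that 0.154. The nearest of the other 9 genes, Sesn1, came at rank 1190 (0.157) and Mdm2 at 2668 (0.180), both above it. For Cdkn1a they were Elf3 (0.0998), Sox15 (0.111) and Rasgrp1 (0.113), with Zmat3 at rank 81 and Bbc3 at 363 and a root mean square of 0.494 for Cdkn1a itself. For Mdm2 they were Stag1 (0.0357), Pdxdc1 (0.0392) and Phf3 (0.0396), with a root mean square of 0.109 for Mdm2 itself. Pmaip1 was the nearest of the p53 genes at rank 3643, with a difference of 0.140, again above that of a gene without change. Cdkn1a at rank 11249 (0.510) and Zmat3 at 11123 (0.465) were among the genes that differed most from Trp53. The measure is not scaled, so that a gene with large changes of its own ranks far from Trp53 whatever their shape.

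Around these 10 genes, 5 further lists of the pathway were read: regulators of p53, other targets for cell cycle, for apoptosis and for repair and metabolism, and cell cycle genes repressed through p21. At Day 4, 15 of the 21 regulators tested were called, 8 higher and 7 lower, with a median log2 fold change of -0.04, beside 23.5% and 21.7% of all genes tested. The rises were led by Cdkn2a, whose ARF product inhibits MDM2 (0.62 ± 0.20, adjusted p = 0.00851), at 72.1 to 106 normalised counts with EtOH and 121 to 142 with OHT. That call was lost without the second EtOH (adjusted p = 0.0899), first OHT (0.0722) or the third OHT library (0.0558). Cdkn2a averaged 86.6 normalised counts with EtOH and 133 with OHT, so that only the OHT libraries lifted it over the minimum for a call. At Day 2, with group means of 81.8 and 85.4, it was below that minimum and is not counted among the genes tested. Its fitted Day 2 change was 0.06 ± 0.22 (adjusted p = 0.894). In a single fit of all libraries it was not called in spite of an adjusted p of 0.00309, because its mean there missed the minimum. Sirt1, which deacetylates p53, rose by 0.36 ± 0.04 (adjusted p = 6.96e-23). Hipk2, a kinase of p53 in the apoptotic response, fell by 0.45 ± 0.12 (adjusted p = 6.39e-04) and the checkpoint kinase gene Chek2 by 0.29 ± 0.05 (adjusted p = 1.84e-09). At Day 2, 7 of 20 regulators were called higher and 3 lower, with a median of 0.00, beside 9.26% and 10.8% of all genes. The rises were led by the acetyltransferase genes Ep300 (0.71 ± 0.14, adjusted p = 2.24e-05) and Crebbp (0.65 ± 0.17, adjusted p = 0.00235).

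The other targets moved in both directions. Of 38 tested at Day 4, 10 were called higher and 9 lower, with a median log2 fold change of 0.04, and at Day 2 it was 3 higher and 6 lower, with a median of -0.02. Over all genes tested, 23.5% were called higher and 21.7% lower at Day 4, and 9.26% and 10.8% at Day 2. Among 10 cell cycle targets at Day 4, 2 rose and 2 fell. Gadd45a, a stress sensor in repair and checkpoints, rose by 0.36 ± 0.05 (adjusted p = 3.43e-10), and Plk2, a polo-like kinase, by 0.29 ± 0.08 (adjusted p = 0.00177). Sfn, the 14-3-3 sigma gene that holds cells in G2, fell by 0.37 ± 0.05 (adjusted p = 1.92e-11) and Zfp365 by 0.30 ± 0.07 (adjusted p = 1.85e-04). At Day 2, 2 of these 10 were called higher, Ptprv (0.42 ± 0.13, adjusted p = 0.00945) and Plk3 (0.27 ± 0.08, adjusted p = 0.0107), and 1 lower. Ptprv lost its call without the first EtOH (adjusted p = 0.0778) or first OHT library (0.0629) and with effective lengths as offsets (0.368), and Plk3 without the third EtOH (0.0777) or first OHT library (0.0966).

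Of 12 apoptosis targets 3 rose and 2 fell at Day 4, with a median of -0.03, beside the 23.5% and 21.7% of all genes. Steap3, a metalloreductase, moved most: from 909 to 1051 normalised counts with EtOH to 579 to 628 with OHT, a fall of 0.69 ± 0.08 on the log2 scale (adjusted p = 1.91e-16), where at Day 2 it had risen by 0.40 ± 0.09 (adjusted p = 9.15e-05). Apaf1, the core of the apoptosome, rose by 0.21 ± 0.05 (adjusted p = 4.14e-04), the receptor gene Eda2r rose by 0.15 ± 0.05 (adjusted p = 0.0185), and Ei24 fell by 0.24 ± 0.05 (adjusted p = 2.99e-06). The Eda2r call was lost without the second (adjusted p = 0.0535) or the third EtOH library (0.111) and without the first (0.0992) or the third OHT library (0.0972), and with effective lengths as offsets (0.0633). At Day 2, 1 of the 12 was called higher and 2 lower, beside 9.26% and 10.8% of all genes. Ei24 was among those called lower (-0.14 ± 0.05, adjusted p = 0.0289). It was not called without the first (0.166) or second EtOH library (0.0916) or the first (0.0843) or the third OHT library (0.0865). Nor was it called with TMM factors (0.0602), total counts (0.178), effective lengths (0.112) or the length trend removed (0.122).

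Of 16 repair and metabolism targets 5 rose and 5 fell at Day 4, beside 23.5% and 21.7% of all genes. At Day 2, 3 fell, beside 10.8%, and none was called higher, beside 9.26%. Aldh4a1, a mitochondrial enzyme of proline breakdown, had the largest OHT effect of any p53 target read. It went from 1613 to 1666 normalised counts with EtOH to 864 to 923 with OHT at Day 2 (-0.86 ± 0.06, adjusted p = 5.70e-38) and from 1547 to 1682 with EtOH to 697 to 752 with OHT at Day 4 (-1.15 ± 0.07, adjusted p = 2.50e-64). Aldh4a1 is also on the study's list of PRDM10-bound genes. Ddit4 (REDD1), which inhibits mTORC1, fell by 0.29 ± 0.06 at Day 2 (adjusted p = 8.33e-06) and by 0.66 ± 0.09 at Day 4 (adjusted p = 2.68e-13), and Sesn2, a relative of Sesn1, fell by 0.43 ± 0.05 at Day 4 (adjusted p = 7.28e-15). Ephx1, an epoxide hydrolase, rose by 0.42 ± 0.12 at Day 4 (adjusted p = 0.00135).

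**Figure D5:**
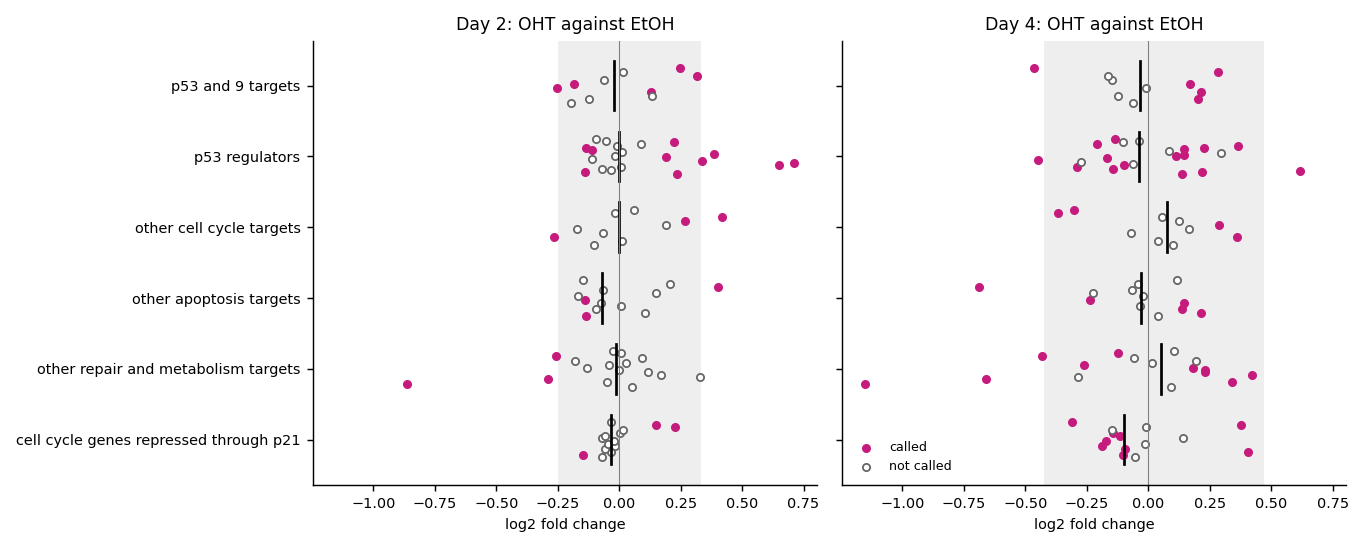
Log2 fold change of OHT against EtOH for each gene of the 6 lists with a mean normalised count above 100, filled where called. Black bars are list medians, which lay between -0.10 and 0.08, and grey is the range from the 5th to the 95th percentile of all genes tested.

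Genes repressed through p21 and the DREAM complex drive the cell cycle. Of 14 on the list, 7 were called lower at Day 4 and 2 higher, with a median log2 fold change of -0.10, beside 21.7% and 23.5% of all genes. Plk1 fell by 0.31 ± 0.04 (adjusted p = 1.88e-12) and Ccnb1, the cyclin of mitotic entry, by 0.19 ± 0.03 (adjusted p = 1.76e-08). Bub1, a spindle checkpoint kinase, rose by 0.40 ± 0.03 (adjusted p = 3.30e-32) and Mybl2, a proliferation factor, by 0.38 ± 0.03 (adjusted p = 1.97e-41). At Day 2, 2 rose (Foxm1 by 0.23 ± 0.06, adjusted p = 0.00281, and Mybl2 by 0.15 ± 0.04, adjusted p = 7.75e-04) and 1 fell, with a median of -0.03, beside 9.26% and 10.8%. Cdkn1a was called on neither day.

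Between the days in EtOH cells, 14 of the 38 other targets were called lower at Day 4 and 7 higher, with a median log2 fold change of -0.06, beside 20.6% and 20.7% of all genes. In OHT cells 12 were lower and 7 higher, with a median of -0.05, beside 23.1% and 30.9%. The median of the first 10 genes in EtOH cells was -0.37. Of the cell cycle targets 4 of 10 were called lower in EtOH cells and 1 higher, and of the apoptosis targets 5 of 12 lower and 3 higher. Ddit4 fell from 3510 to 3754 normalised counts at Day 2 to 736 to 836 at Day 4 in EtOH cells.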

How the data were processed

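RNA-seq libraries from mESCs were grouped by sample title into 4 groups of 3. The authors aligned reads to GRCm38.p6 with STAR 2.6.0c and deposited expected counts from RSEM per gene and library, which share out reads that map to several genes (the posterior SD was at most 0.33 counts for the 10 genes), and TPM, which corrects for effective length and was used here only for levels. The authors also deposited log2 fold changes and p-values from DESeq2 1.22.2, which were not used, and other columns such as effective lengths.

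Expected counts were rounded and fitted over all genes for each comparison with DESeq2 1.42.0 in R 4.3.3 (Wald test, median-of-ratios size factors). The Benjamini-Hochberg adjustment covered the genes that the independent filtering of DESeq2 on the mean count kept. A gene was called at an adjusted p below 0.05 with a mean normalised count above 100. Printed normalised counts use size factors over all 12 libraries, so their ratios differ slightly from fitted fold changes. The scripts were tested on simulated data. Alternatives were edgeR 4.0.16 (quasi-likelihood, TMM), TMM factors, total counts, effective lengths as offsets, a loess trend on gene length removed (span 0.3), 1 fit of 12 libraries, a replicate block, leaving out each library, and other minimum or adjustment rules. Libraries held 35017667 to 41409992 counts, and PCR copies were not told apart by molecular tags. Counting error is small for genes with high counts, such as Ccng1 (9310 to 12310 normalised counts over the 12 libraries). It is not negligible for Cdkn1a (191 to 231 normalised counts at Day 4) or Bbc3 (283 to 368 at Day 4). The part of counting error in the Day 4 standard errors of Cdkn1a and Bbc3 was not tested.

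The 10 genes, the pathway lists and the marker lists were chosen with earlier results of these data known. Named were all 10 genes, Prdm10, Wrap53, up to 4 genes per pathway list with the largest called Day 4 change and up to 2 at Day 2, and for Trp53, Cdkn1a and Mdm2 the 3 genes nearest in pattern (added count 0.5). 1 listed gene was not matched. No 2 libraries of a group agreed within counting noise (chi-square per gene 3.41 to 11.2). Same-numbered libraries showed no common deviation, and the main fits did not pair them. Whether a number marks a shared culture is not known.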

Additional observations from a re-analysis of the deposited data

Results flagged for a closer look

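Effects of OHT that differed between Day 2 and Day 4 by the interaction test were set apart, each given as the Day 4 minus the Day 2 log2 fold change. Beyond the 10 genes, those named in the report are given. Among the 10 genes these were Zmat3 (-0.71), Trp53 (-0.48), Pmaip1 (0.35), Ccng1 (0.33), Trp53inp1 (0.27) and Phlda3 (0.25). Of 20 regulators of p53, 5 were called higher and 6 lower, and those named were Ep300 (-0.98), Hipk2 (-0.78), Crebbp (-0.71), Sirt1 (0.38) and Chek2 (-0.22). Of 10 other cell cycle targets, 2 were called higher and 2 lower, and those named were Gadd45a (0.63), Zfp365 (-0.36) and Sfn (-0.35). Of 12 apoptosis targets, 3 were called higher and 2 lower, Steap3 (-1.09) and Eda2r (0.22) among them, and of 16 repair and metabolism targets, 4 higher and 4 lower, Ddit4 (-0.37) and Aldh4a1 (-0.28) among them. Of 14 cell cycle genes repressed through p21, 2 were called higher and 5 lower, and those named were Bub1 (0.44), Plk1 (-0.27), Foxm1 (-0.23), Mybl2 (0.23) and Ccnb1 (-0.17). Prdm10 itself differed by -0.23. The difference is past the threshold in 32.5% of all genes tested, so that it is common here.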

How the results depend on the processing

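Over the 10 genes and 5 comparisons, 657 of 730 values under other settings kept their direction and their side of the threshold, 54 lost a call, 7 gained one and 12 changed sign. The Day 2 calls were the least stable: 5 of the 10 genes were called, but 3 with effective lengths as offsets, 3 with a replicate block and 2 to 4 with 1 library left out. For Day 4 against Day 2 in OHT cells, 8 were called and 4 to 6 with 1 library left out, and the cause was not tested beyond the smaller number of libraries. Signs changed only in values that were not called. Trp53inp1 at Day 2 was -0.0548 with the length trend removed, -0.0600 with the replicate block added to that, and -0.0399 to 0.102 with 1 library left out. Phlda3 at Day 4 was 4.89e-04 with the block and the length trend removed, and -0.0448 to 0.0265 with 1 library left out. Bbc3 at Day 4 ranged from -0.126 to 0.0734, Sesn1 between the days in EtOH cells from -0.00853 to 0.104, and Ccng1 between the days in OHT cells from -0.0365 to 0.0667 with 1 library left out, and Ccng1 was -0.00970 with total counts as size factors.

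Over all genes, 2341 were called at Day 2, and 1306 with the replicate block, 1137 with block and length trend removed, and 1197 to 2179 with 1 library left out. For the difference between days 3772 fell to 2433 and 2278 under the first 2 of these. With total counts as size factors the share of calls that were higher went from 46.0% to 68.5% at Day 2 and from 58.1% to 44.3% for the difference between days. Of 12 same-numbered pairs of libraries, 3 had deviations correlated above 0.1 (range -0.43 to 0.29, beside -0.40 to 0.42 for other pairs). No common deviation by number was seen, but with 3 libraries per group this does not settle whether the numbers pair the samples. With the block and the length trend removed, Phlda3 was -0.19 at Day 2 (adjusted p = 0.229) and Ccng1 was called (-0.14, adjusted p = 0.0320). With the replicate block, Mdm2 (adjusted p = 0.118) and Phlda3 (0.0526) lost their Day 2 calls, Phlda3 lost its difference between days (0.148), and Phlda3 (0.0854) and Trp53inp1 (0.261) lost theirs between the days in OHT cells. The block alone changed no other call among the 10 genes.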

Other observations

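The genes in this section were chosen after their values were seen. Between the days in EtOH cells the other targets moved in both directions by amounts as large as those of the 10 genes. Ier5, an immediate early target, fell by 1.21 on the log2 scale from Day 2 to Day 4 (adjusted p = 9.76e-15), Btg2, an antiproliferative gene, fell by 0.50 (adjusted p = 1.84e-15), and the receptor gene Eda2r fell by 0.41 (adjusted p = 7.29e-13). Plk3 rose by 0.57 (adjusted p = 2.62e-12), Tigar, which lowers glycolytic flux, by 0.40 (adjusted p = 7.16e-19) and Steap3 by 0.94 (adjusted p = 5.62e-27). In OHT cells Ier5 fell by 0.86 (adjusted p = 2.56e-08), Btg2 by 0.29 (adjusted p = 5.94e-05) and Eda2r by 0.18 (adjusted p = 0.00555), while Plk3 rose by 0.44 (adjusted p = 3.37e-08) and Tigar by 0.28 (adjusted p = 4.54e-09). Steap3 was at -0.14 in OHT cells and not called (adjusted p = 0.176).

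The effective length that RSEM estimates for Sesn1, which depends on the mix of its transcripts, was 2685 to 2740 bases in the 6 Day 2 libraries and 2779 to 2858 bases in the 6 Day 4 libraries. The Sesn1 counts did not differ between the days by the test in either treatment. Sesn1 overlaps 9930024M15Rik on the same strand over 2584 bases in GENCODE vM21, and the part of this overlap in the estimate was not tested.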
